A study of Mus musculus with 8 samples.

Results

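Bone morphogenetic protein (BMP) and transforming growth factor beta (TGF-beta) signalling was followed through 41 listed genes in 2 fractions of mouse esophageal cells that differed in Cyto-ID, a stain for autophagic vesicles. The labels call both fractions basal cells, and the marker levels given below go against that name for the Cyto-ID High fraction. The list was drawn up by gene function, with earlier results of these data known. It holds ligands, receptors, extracellular antagonists, Smad proteins and target genes. All 41 were among the 55276 gene symbols of the count table. Of these, 36 members and 17344 genes in all had enough counts to be tested. RNA came from esophageal epithelium of C57BL6 mice aged 14 to 15 weeks, 2 female and 2 male. The labels name no allele, transgene or drug in any group. The epithelium was peeled from the muscle, digested with dispase and trypsin, and sorted for live cells (DAPI negative) that carried integrin beta-1. These cells were split by Cyto-ID fluorescence into a Cyto-ID Low and a Cyto-ID High fraction. By the animal names in the labels, each animal gave 1 library of each fraction, so each group held 4 libraries. Both fractions therefore come from the same gate of integrin beta-1-positive cells, and the width of the Cyto-ID gates is not given in the sources used here.

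As background, BMPs, TGF-betas and activins are secreted dimers that bring together a type I and a type II receptor serine kinase. The type II receptor activates the type I receptor, which phosphorylates Smad1, Smad5 and Smad9 after BMP binding, or Smad2 and Smad3 after binding of TGF-beta or activin. These join Smad4 and enter the nucleus, where Id genes are classical targets of BMP and Tgfbi of TGF-beta. Smad6 and Smad7 are inhibitory members that the pathway itself induces, and antagonists such as noggin, gremlin and follistatin trap the ligands outside the cell. In stratified epithelia, TGF-beta is known as a brake on keratinocyte proliferation. In the esophagus, BMP signalling is known to accompany the differentiation of basal progenitor cells.

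Libraries held 26285150 to 29301054 counts. The genes of basal keratinocytes were all lower in Cyto-ID High (8 of 8 listed, summed level 20630 to 24520 CPM in Low and 2721 to 4390 CPM in High). Those of the layers above were all higher (9 of 9, 8645 to 26020 CPM in Low and 146400 to 246600 CPM in High). No basal or suprabasal marker was at 0 in any library. CPM are counts brought to a common library size with edgeR's TMM factors. In bulk RNA, fewer cells of a type and less RNA per cell cannot be told apart, and the part of this shift between layers in the values below was not tested. The summed markers of fibroblasts, endothelium, leukocytes and muscle were each lowest in the High library of Male2, as were 7 of 10, 5 of 8, 6 of 8 and 8 of 8 single genes of these lists. There, 1 marker each of the last 3 lists was at 0, and the fibroblast list summed to 57.0 CPM, against 172.7 to 515 CPM in the other High and 402.6 to 568.9 CPM in the Low libraries. Gastric markers summed to 18.4 and 111 CPM in the Low and High libraries of Female2 and to at most 1.34 CPM elsewhere. Both animals are therefore also left out below.

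In Cyto-ID High, 18 of the 36 tested members were lower and 2 were higher. The test was edgeR's quasi-likelihood test with sex as a covariate and a Benjamini-Hochberg adjusted p under 0.05 over all 17344 genes. The same rule called 48.7% of all tested genes, 25.3% lower and 23.4% higher. The fall reached at least 2-fold for 14 members, against 15.3% of all genes, and the rise did so for 1 member, against 13.3% of all genes. The median log2 fold change of the members was −0.67, beside −0.09 for all tested genes. This median moved with single libraries: it was −0.47 without the High library of Male2 (all genes −0.05), −1.09 without that of Male1 (all genes −0.15), and −0.38 without both libraries of Male2 (all genes 0.0054). The 4 High libraries lay below all 4 Low libraries for 17 members, against 24.9% of all genes, and above them for 2 members, against 23.6%. Without both libraries of Male2, 16 members were lower and 2 higher, beside 20.7% and 20.4% of all genes. Without both of Female2, 18 were lower and 3 higher, beside 21.7% and 21.6%. With the animal as a replicate block, 18 were lower and 4 higher, beside 28.5% and 25.4%. The members that fell were found in every role, and those that rose were the receptor Bmpr2 and the target Id1.

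**Figure D1:**
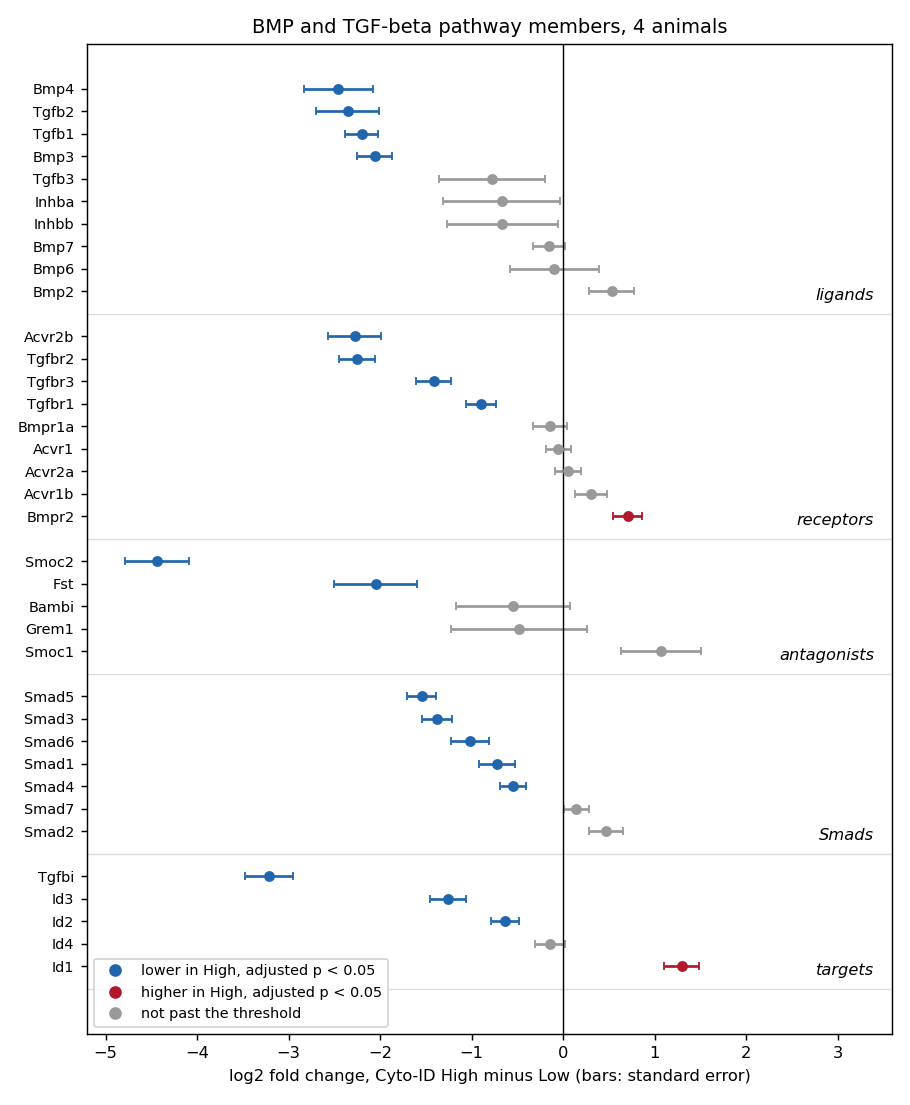
Log2 fold change of Cyto-ID High against Low for the 36 tested members, grouped by role, with bars for the standard error and colours for the edgeR call at an adjusted p of 0.05. Smoc2 and Tgfbi lie farthest to the left, at −4.44 and −3.21, and Id1 and Bmpr2 are the 2 members called on the right, at 1.30 and 0.71.

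Tgfb1, Tgfbr1, Tgfbr2 and Smad3, a ligand, its receptors and a Smad, were each called lower, and the 250 bases before an annotated start of each are shown for that reason. Tgfbr1 has a second annotated start, whose window (chr4:47385966-47386215) is not printed. The 4 genes were picked after their values were seen, and other members of the same branch, Smad2 and Tgfb3, did not pass. They come from RefSeq on GRCm38.p6, read 5′ to 3′ on the strand of the gene. Capitals mark GTCT or its reverse complement AGAC, the core that Smad3 and Smad4 bind, and GGCGCC, a GC-rich element bound by Smads, both searched on both strands. 
Tgfb1 (chr7:25686752-25687001, plus strand): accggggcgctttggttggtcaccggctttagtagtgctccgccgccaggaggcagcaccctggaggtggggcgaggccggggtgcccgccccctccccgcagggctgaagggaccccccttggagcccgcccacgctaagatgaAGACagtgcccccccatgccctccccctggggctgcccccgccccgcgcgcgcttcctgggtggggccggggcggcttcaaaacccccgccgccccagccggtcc
Tgfbr1 (chr4:47352972-47353221, plus strand): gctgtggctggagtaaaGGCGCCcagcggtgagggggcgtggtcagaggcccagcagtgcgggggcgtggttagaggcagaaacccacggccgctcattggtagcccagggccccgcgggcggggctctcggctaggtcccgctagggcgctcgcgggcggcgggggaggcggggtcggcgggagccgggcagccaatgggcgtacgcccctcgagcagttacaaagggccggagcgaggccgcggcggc
Tgfbr2 (chr9:116175364-116175613, minus strand): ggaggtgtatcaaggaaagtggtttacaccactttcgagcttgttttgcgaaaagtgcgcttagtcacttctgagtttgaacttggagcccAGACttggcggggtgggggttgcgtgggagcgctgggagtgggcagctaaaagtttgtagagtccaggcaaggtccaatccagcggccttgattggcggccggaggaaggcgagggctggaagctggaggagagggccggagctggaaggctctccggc
Smad3 (chr9:63757995-63758244, minus strand): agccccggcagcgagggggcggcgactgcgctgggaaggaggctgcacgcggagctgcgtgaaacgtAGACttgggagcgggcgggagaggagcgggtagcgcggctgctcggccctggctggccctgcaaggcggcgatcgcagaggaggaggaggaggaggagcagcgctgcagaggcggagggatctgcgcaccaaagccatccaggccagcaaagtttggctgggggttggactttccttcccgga
The core GTCT or AGAC occurred in 3 of these 4 windows, though not in the one printed for Tgfbr1. The second window of Tgfbr1 held 2 such cores, so the count depends on the start chosen. The core occurred in 82.9% of all 32851 promoter windows of this length. GGCGCC occurred in the window of Tgfbr1, at position −233 from the start, and in 9.59% of all windows. Of the 26 members with a RefSeq window, 9 had GGCGCC in at least 1 window, beside 10.8% of all genes. The element holds only G and C, the windows with it had a GC content of 62.4% to 78.8%, and GC content was not accounted for. Some of these windows lie in exons, that of Bmpr2 with all 250 bases. All hits are matches of letters only, and Id1, the member that rose most, was not among the 26.

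Among the ligands, 4 of the 10 tested were lower and none was higher, beside 25.3% and 23.4% of all genes. In each list of values that follows, the animals stand in the order Female1, Female2, Male1, Male2, and gene positions are those of GENCODE M21 on GRCm38. Tgfb1 (chr7:25687002-25705077), the main TGF-beta of epithelia, stood at 29.7, 32.5, 33.6 and 37.9 CPM in Low and 8.80, 5.01, 7.32 and 7.87 CPM in High. The groups did not overlap, with a log2 change of −2.20 ± 0.18 (SE, edgeR adjusted p 1.91e-05). Tgfb2 (chr1:186622792-186705989), a second isoform, stood at 3.37, 6.21, 4.22 and 5.58 CPM in Low and 1.54, 0.784, 0.915 and 0.566 CPM in High. It was lower in High in all 4 animals, least so in Female1, with a log2 change of −2.36 ± 0.35 (SE, edgeR adjusted p 0.000379). Tgfb3, the third isoform, did not pass, with a log2 change of −0.78 ± 0.58 (SE, edgeR adjusted p 0.308). Single libraries moved this value to −0.37 without the High library of Male2 and to −1.36 without that of Female1. It was higher in High in Female1 and Male1, where the difference was 0.29 and 0.049 log2 CPM, and lower in Female2 and Male2, at −1.505 and −3.64.

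Of the 5 BMP ligands tested, Bmp3 and Bmp4 fell, and Bmp2, Bmp6 and Bmp7 did not pass. Bmp4 (chr14:46383520-46390669), a ligand of the BMP2 and BMP4 subgroup, stood at 12.6, 19.6, 19.0 and 33.5 CPM in Low and 2.47, 3.57, 2.02 and 7.41 CPM in High. Every High library lay under every Low library, with a log2 change of −2.46 ± 0.38 (SE, edgeR adjusted p 0.000518), and Male2 was highest in both fractions. Bmp3 (chr5:98854415-98884396), an atypical BMP that can oppose the others, stood at 46.6, 55.8, 58.6 and 68.1 CPM in Low and 10.3, 14.9, 11.4 and 18.3 CPM in High. The groups did not overlap and the spread was small, with a log2 change of −2.06 ± 0.19 (SE, edgeR adjusted p 2.78e-05).

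Bmp2, the close relative of Bmp4, was not called lower. Its levels were 24.1, 29.6, 26.9 and 38.6 CPM in Low and 34.9, 48.2, 28.2 and 60.5 CPM in High, higher in High in all 4 animals, with a log2 change of 0.53 ± 0.24 (SE, edgeR adjusted p 0.0997). It passed with the animal as a replicate block (0.49, edgeR adjusted p 0.015), with no filter on low counts (0.49, edgeR adjusted p 0.0342) and without the High library of Male1 (0.74, edgeR adjusted p 0.0139). With the other libraries left out singly it did not pass and was lowest, at 0.30, without the High library of Male2 (edgeR adjusted p 0.333). Under scaling by total counts its sign turned, to −0.07. Bmp7, which can pair with Bmp2 or Bmp4 in a heterodimer, was at 53.3 ± 10.0 CPM in Low and 48.2 ± 9.66 CPM in High (SD, n = 4 each), with a log2 change of −0.15 ± 0.17 (SE, edgeR adjusted p 0.512). Per kilobase of exon, Bmp7 and Bmp2 were the highest BMP ligands in High, at 12.0 and 12.1 CPM per kb, and Bmp7, Bmp4 and Bmp2 were the highest in Low, at 13.3, 9.42 and 8.39. Bmp6 was near the floor of detection at 0.543 ± 0.210 CPM in Low and 0.520 ± 0.286 CPM in High (SD, n = 4 each) and did not pass, with a log2 change of −0.09 ± 0.48 (SE, edgeR adjusted p 0.899). Bmp5 had 1 to 8 counts per library and was not tested.

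The activin subunit genes Inhba and Inhbb, whose products pair to form activins, were low in both fractions. Inhba was at 6.49, 2.14, 2.11 and 2.54 CPM in Low and 3.94, 1.48, 2.67 and 0.154 CPM in High, and Inhbb at 3.86, 2.64, 2.17 and 2.20 CPM in Low and 3.86, 1.26, 1.98 and 0.103 CPM in High. Neither passed, with log2 fold changes of −0.67 (SE 0.63, edgeR adjusted p 0.424) and −0.66 (SE 0.61, edgeR adjusted p 0.407). Both were lowest in the High library of Male2, with 3 and 2 counts. Without that library the values were −0.32 and −0.26, and without the High library of Male1 they were −1.42 and −1.22.

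Summed per kilobase, the 3 TGF-beta ligands were at 8.55 ± 0.96 in Low and 2.26 ± 0.85 CPM per kb in High (SD, n = 4 each), and the groups did not overlap. The 6 BMP ligands were at 39.0 ± 8.9 in Low and 27.8 ± 7.7 CPM per kb in High (SD, n = 4 each), and the groups overlapped, although the sum was lower in High in all 4 animals. Under total counts the BMP ligand sums were 47.3 ± 9.9 and 22.3 ± 2.8 CPM per kb and did not overlap.

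**Figure D2:**
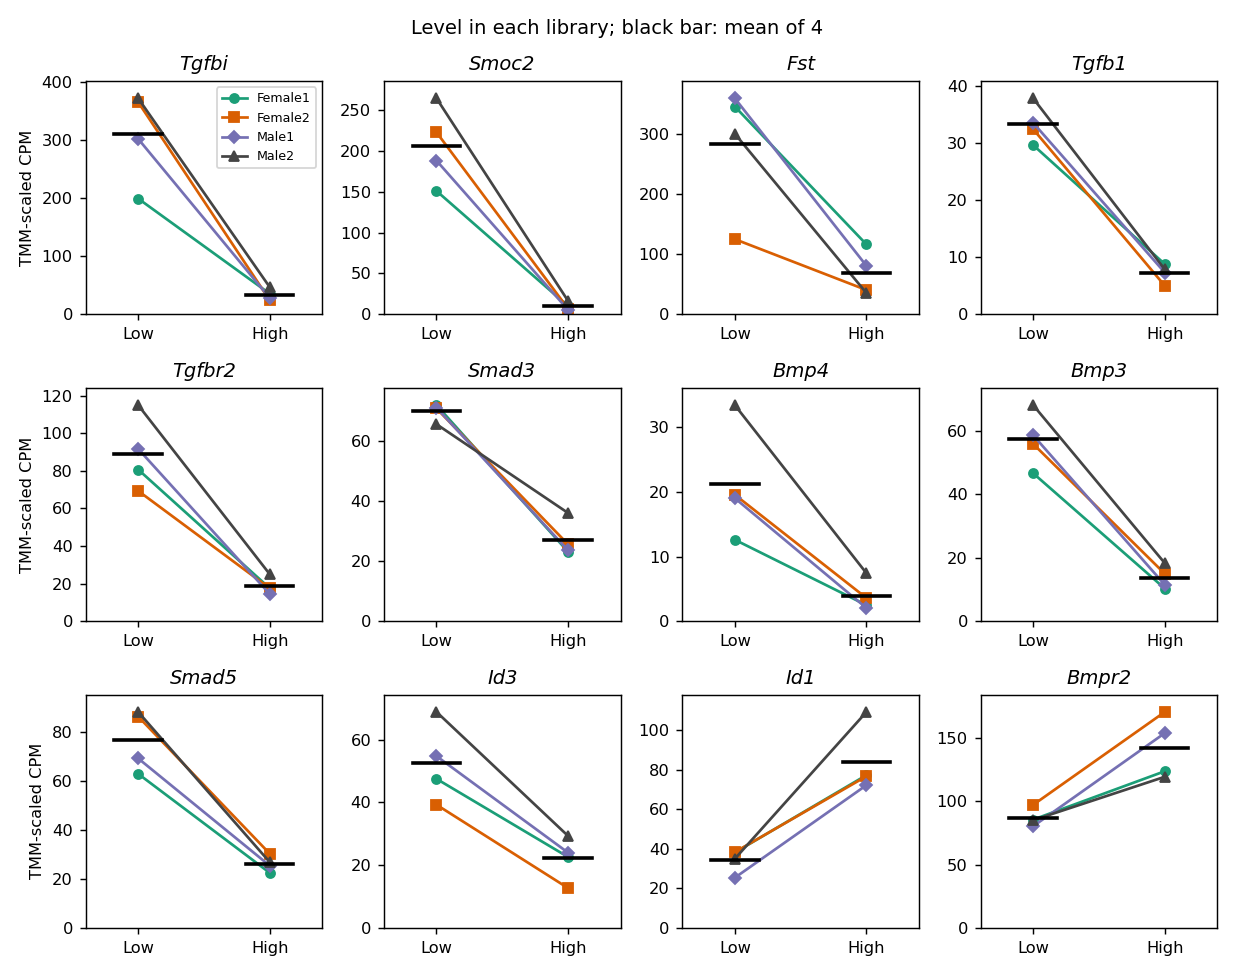
TMM-scaled CPM of 12 members in each library, with 1 line per animal and a black bar at the mean of 4. Id1 and Bmpr2 rise in all 4 animals and the other 10 members fall in all 4, with Smoc2 going from 206.4 to 9.59 CPM on average.

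Among the receptor members, the 3 receptors of TGF-beta fell, as did Acvr2b, which binds activins and some BMPs. No other receptor among the members was called lower. Of 9 tested receptors 4 were lower and 1 was higher, beside 25.3% and 23.4% of all genes. Tgfbr2 (chr9:116084293-116175360), the type II receptor that binds TGF-beta, stood at 80.6, 69.3, 91.6 and 115 CPM in Low and 17.4, 17.4, 14.4 and 24.9 CPM in High. The groups lay far apart, with a log2 change of −2.25 ± 0.19 (SE, edgeR adjusted p 2.11e-05). Tgfbr3 (chr5:107106570-107289629), betaglycan, a coreceptor that presents TGF-beta, stood at 21.1, 30.9, 26.0 and 34.2 CPM in Low and 8.45, 11.7, 9.69 and 12.3 CPM in High. The fall was much the same in each animal, from −1.31 to −1.47 log2 CPM, with a log2 change of −1.41 ± 0.19 (SE, edgeR adjusted p 0.000211).

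Tgfbr1, the type I receptor of TGF-beta, fell less. It went from 30.1 ± 4.3 to 16.2 ± 2.5 CPM (SD, n = 4 each), with a log2 change of −0.90 ± 0.16 (SE, edgeR adjusted p 0.00143), and its smallest fall was in Female2, at −0.30 log2 CPM. Acvr2b (chr9:119402118-119434995) stood at 3.43, 4.54, 4.29 and 3.47 CPM in Low and 0.656, 1.00, 0.572 and 1.03 CPM in High, with a log2 change of −2.28 ± 0.29 (SE, edgeR adjusted p 0.00015). Its High libraries held only 15 to 23 counts of it. Its paralogue Acvr2a, at 42.8 ± 1.99 CPM in Low and 44.4 ± 7.47 CPM in High (SD, n = 4 each), gave a log2 change of 0.05 ± 0.14 (SE, edgeR adjusted p 0.792).

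Bmpr2, the type II receptor dedicated to BMPs, rose. It stood at 85.4, 97.1, 80.2 and 84.97 CPM in Low and 124, 170.4, 154 and 119 CPM in High, with no overlap between the groups and a log2 change of 0.71 ± 0.15 (SE, edgeR adjusted p 0.00397). Under scaling by total counts the rise was 0.15 and did not pass (edgeR adjusted p 0.47). The tested type I receptors of BMPs among the members did not pass: Bmpr1a gave −0.15 (SE 0.19, edgeR adjusted p 0.571) and Acvr1 −0.05 (SE 0.14, edgeR adjusted p 0.802). Acvr1b, the type I receptor of activin, was higher in High in all 4 animals, with a log2 change of 0.30 ± 0.17 (SE, edgeR adjusted p 0.183). It passed without the Low library of Female2 (0.41, edgeR adjusted p 0.0481) and was lowest, at 0.20, without the High library of Male2 (edgeR adjusted p 0.397), and its sign turned under scaling by total counts (−0.28). Bmpr1b had 0 to 10 counts per library and was not tested.

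Within a library, the share of 1 gene in a summed family does not depend on how libraries are scaled. Of the 4 type II receptors summed per kilobase, Tgfbr2 held 36.9% to 52.5% in Low and 9.49% to 17.98% in High. Bmpr2 held 17.7% to 23.6% in Low and 39.2% to 46.2% in High. By mean level per kilobase Tgfbr2 was the first type II receptor in Low, at 10.9 CPM per kb. In High, Bmpr2 at 7.88 and Acvr2a at 7.82 CPM per kb were close together. These ranks and shares depend on the length used, the union of a gene's annotated exons (17.983 kb for Bmpr2, 8.187 kb for Tgfbr2). Before division by length, Tgfbr2 and Bmpr2 were at 89.1 and 86.9 CPM in Low. In High, Bmpr2 and Acvr2a were at 141.7 and 44.4 CPM. The type I receptors summed to 46.1 ± 2.4 CPM per kb in Low and 47.4 ± 7.8 in High (SD, n = 4 each), with overlapping groups. Under total counts they were at 56.1 ± 3.8 and 38.6 ± 4.0 CPM per kb, with no overlap.

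**Figure D3:**
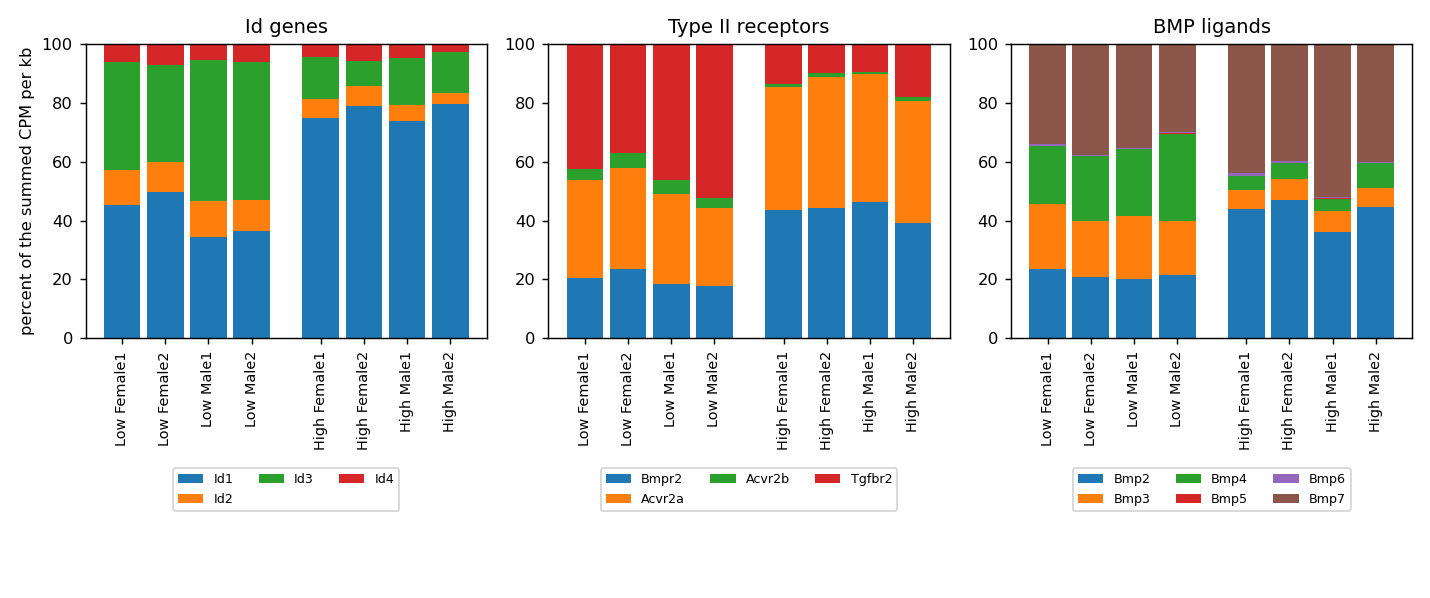
Share of each gene in the summed CPM per kb of its family, as a stacked bar for each of the 8 libraries. Id1 takes 34.2% to 49.7% of the Id bar in Low and 73.7% to 79.6% in High, while the Tgfbr2 part of the receptor bar and the Bmp3 and Bmp4 parts of the ligand bar shrink in High.

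Of 7 tested Smads 5 were lower and none was higher, beside 25.3% and 23.4% of all genes. Among those that receptors phosphorylate, Smad1, Smad3 and Smad5 fell and Smad2 did not pass. Smad5 (chr13:56703010-56742377), a BMP-pathway Smad, stood at 62.9, 86.2, 69.2 and 88.1 CPM in Low and 22.5, 30.3, 25.4 and 26.8 CPM in High. The fall was close to even across animals, from −1.45 to −1.71 log2 CPM, with a log2 change of −1.55 ± 0.16 (SE, edgeR adjusted p 5.54e-05). Smad3 (chr9:63646767-63757994), which carries TGF-beta and activin signals and binds DNA directly, stood at 72.0, 70.8, 71.1 and 65.6 CPM in Low and 23.1, 25.6, 23.6 and 36.0 CPM in High. The 4 Low libraries ranged over 1.10-fold, and Male2 was highest of the High libraries, with a log2 change of −1.38 ± 0.16 (SE, edgeR adjusted p 0.000103). Smad1, the partner of Smad5, was at 70.4, 38.6, 68.7 and 64.4 CPM in Low and 34.1, 35.0, 32.5 and 44.8 CPM in High. It fell less, with a log2 change of −0.72 ± 0.19 (SE, edgeR adjusted p 0.0118), and its groups overlapped, since the Low library of Female2 lay under the High library of Male2.

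Smad2, which shares its receptors with Smad3, was not called lower. It was at 53.7, 61.3, 58.1 and 68.0 CPM in Low and 60.3, 102, 72.2 and 98.9 CPM in High, higher in High in all 4 animals, with a log2 change of 0.47 ± 0.19 (SE, edgeR adjusted p 0.0638). It passed with the replicate block (0.44, edgeR adjusted p 0.0209), with DESeq2 (0.53, adjusted p 0.021), with size factors by relative log expression (0.53, edgeR adjusted p 0.0368) and with at least 10 counts in every library (0.43, edgeR adjusted p 0.0344). It also passed without the High library of Female1 (0.60, edgeR adjusted p 0.0187) or of Male1 (0.57, edgeR adjusted p 0.0487). With the other libraries left out singly it did not pass and was lowest, at 0.29, without the High library of Female2 (edgeR adjusted p 0.214). Its sign turned under total counts (−0.12). Smad2 made up 32.0% to 39.5% of the summed Smad2 and Smad3 level per kilobase in Low and 62.2% to 71.6% in High. Smad9, the remaining BMP-pathway Smad, had 0 to 6 counts per library and was not tested.

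Smad4, the partner that both branches share, was the highest Smad per kilobase in both fractions, at 26.1 in Low and 17.8 in High. It fell from 96.7 ± 6.1 to 66.0 ± 9.0 CPM (SD, n = 4 each), with a log2 change of −0.55 ± 0.14 (SE, edgeR adjusted p 0.00895). Without both libraries of Male2 it did not pass (−0.51, edgeR adjusted p 0.0552). Of the inhibitory pair, Smad6 (chr9:63953076-64022059), which acts mainly on the BMP branch, stood at 8.80, 12.1, 8.29 and 10.5 CPM in Low and 4.399, 4.09, 4.73 and 6.53 CPM in High. The groups did not overlap, with a log2 change of −1.02 ± 0.21 (SE, edgeR adjusted p 0.00272). Smad7, which acts on both branches, was at 29.9 ± 1.80 CPM in Low and 33.0 ± 4.29 CPM in High (SD, n = 4 each), with a log2 change of 0.14 ± 0.14 (SE, edgeR adjusted p 0.433). Under total counts Smad7 was lower (−0.43, edgeR adjusted p 0.00552).

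Among the antagonists and matrix modulators, 2 of 5 tested genes were lower and none was higher, beside 25.3% and 23.4% of all genes. Smoc2 (chr17:14279506-14404790), a secreted matricellular protein of the family whose members can inhibit BMP signalling, stood at 151, 223, 188 and 264 CPM in Low and 9.92, 6.79, 5.38 and 16.3 CPM in High. This was the largest change of any member, with a log2 change of −4.44 ± 0.35 (SE, edgeR adjusted p 1.71e-05). Its paralogue Smoc1 was rare, with 4 to 20 counts per library, and did not pass, with a log2 change of 1.07 ± 0.44 (SE, edgeR adjusted p 0.0703). Smoc1 passed with limma-voom (1.16, adjusted p 0.0492), without the Low library of Female2 (1.503, edgeR adjusted p 0.0205) and without both libraries of Female2 (1.53, edgeR adjusted p 0.0281). With the other libraries left out singly it did not pass and was lowest, at 0.88, without the Low library of Female1 (edgeR adjusted p 0.161).

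Fst (chr13:114452290-114458951), follistatin, which binds and neutralises activins, stood at 345, 125, 359 and 300.2 CPM in Low and 116, 40.4, 80.5 and 35.2 CPM in High. It fell in all 4 animals, with a log2 change of −2.05 ± 0.45 (SE, edgeR adjusted p 0.00417), and its Low library of Female2 was the lowest of its group by a wide gap. Per kilobase, Fst was second only to Tgfbi among the members in Low, at 61.5 CPM per kb, and was at 14.8 in High. The activin subunits that follistatin binds were each under 1 CPM per kb in both fractions. Grem1, gremlin, was at 4.94, 3.02, 2.08 and 2.44 CPM in Low and 4.59, 1.48, 2.94 and 0 CPM in High. Bambi, a pseudoreceptor without kinase activity, was at 3.64, 2.72, 2.36 and 2.63 CPM in Low and 3.67, 1.39, 2.71 and 0.103 CPM in High. Neither passed, with log2 fold changes of −0.48 (SE 0.75, edgeR adjusted p 0.643) and −0.55 (SE 0.62, edgeR adjusted p 0.512). Single libraries moved these values: Grem1 was at −0.08 without the High library of Male2 and −1.36 without that of Male1, and Bambi at −0.15 and −1.26. Nog, noggin, and Chrdl1, chordin-like 1, had at most 6 and 4 counts in any library and were not tested.

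Of the 5 target genes 3 fell and 1 rose, beside 25.3% and 23.4% of all genes. Tgfbi (chr13:56609523-56639562), a secreted matrix protein named for its induction by TGF-beta, stood at 199.6, 366, 303 and 372 CPM in Low and 35.5, 24.2, 27.9 and 46.7 CPM in High. The groups lay far apart, with a log2 change of −3.21 ± 0.26 (SE, edgeR adjusted p 1.83e-05), and Tgfbi had the highest level per kilobase of all members in Low (82.2 in Low and 8.90 in High).

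The Id genes, which encode dominant negative partners of basic helix-loop-helix factors, did not move as a family. Id1 (chr2:152736251-152737410) stood at 38.1, 38.3, 25.4 and 34.9 CPM in Low and 77.2, 76.6, 72.1 and 109 CPM in High. Each High library lay above every Low library, with a log2 change of 1.30 ± 0.19 (SE, edgeR adjusted p 0.000397), and the rise was 0.72 under scaling by total counts. Id3 (chr4:136143497-136145755) stood at 47.5, 39.2, 54.7 and 68.8 CPM in Low and 22.6, 12.7, 23.9 and 29.3 CPM in High. It fell in all 4 animals, with a log2 change of −1.26 ± 0.19 (SE, edgeR adjusted p 0.0005). Id2 fell less, from 19.4 ± 2.1 to 12.5 ± 1.7 CPM (SD, n = 4 each), with a log2 change of −0.64 ± 0.15 (SE, edgeR adjusted p 0.00646), and did not pass without both libraries of Male2 (−0.47, edgeR adjusted p 0.0668). Id4 was at 17.1 ± 2.703 CPM in Low and 15.6 ± 2.23 CPM in High (SD, n = 4 each), with a log2 change of −0.14 ± 0.16 (SE, edgeR adjusted p 0.525).

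Id1 and Id3 were level per kilobase in Low, at 29.4 and 29.3 CPM per kb, and stood at 72.2 and 12.4 in High. Of the summed Id level, Id1 held 41.5% ± 7.3 in Low and 76.8% ± 3.0 in High, and Id3 held 41.1% ± 7.4 and 13.1% ± 3.2 (SD, n = 4 each). In High, Id1 was the most abundant of all 41 members per kilobase, where in Low that place belonged to Tgfbi. The sum of the 4 Id genes was 71.2 ± 8.2 CPM per kb in Low and 93.7 ± 16.4 in High (SD, n = 4 each), higher in High in all 4 animals. That direction depended on the scaling: under total counts the sum was 86.5 ± 8.5 in Low and 76.4 ± 7.7 CPM per kb in High, higher in High in 1 of 4 animals.

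A further list of 69 ligands, receptors, regulators and reported targets of the same pathways held 53 tested genes, of which 24 were lower and 5 higher in Cyto-ID High, beside 25.3% and 23.4% of all tested genes. Their median log2 fold change was −0.62, and this list too was chosen with earlier results of these data known. Without both libraries of Female2, 20 were lower and 6 higher, beside 21.7% and 21.6% of all genes. The extracellular regulators counted 9 lower and 0 higher of 19 tested, and the intracellular regulators 5 lower and 3 higher of 14. Of the other receptors and coreceptors, 3 of 5 tested were lower and 0 higher. The lower ones were Acvrl1 (−0.68, edgeR adjusted p 0.0122), Rgma (−1.63, edgeR adjusted p 1.83e-05) and Rgmb (−0.72, edgeR adjusted p 0.00226). Of the reported targets, 6 of 12 tested were lower and 2 higher.

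Among those with a mean of at least 5 CPM, the 3 largest falls were those of Snai2, Ccn2 and Ltbp4. Snai2, a transcriptional repressor linked to epithelial-mesenchymal transition, stood at 47.3, 59.8, 74.3 and 58.5 CPM in Low and 7.29, 2.79, 4.96 and 4.58 CPM in High, with a log2 change of −3.60 ± 0.28 (SE, edgeR adjusted p 1.62e-05). Ccn2, connective tissue growth factor, which YAP also induces, stood at 119.6, 42.5, 196 and 80.7 CPM in Low and 10.9, 5.36, 8.92 and 10.6 CPM in High, with a log2 change of −3.57 ± 0.42 (SE, edgeR adjusted p 0.000103). Ltbp4, which holds latent TGF-beta in the matrix, stood at 277, 295, 323 and 353 CPM in Low and 28.9, 20.9, 27.2 and 53.3 CPM in High, with a log2 change of −3.30 ± 0.25 (SE, edgeR adjusted p 1.42e-05). For each of the 3 the groups did not overlap.

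The 3 largest rises were those of Cdkn1a, Cdkn2b and Smurf1. Cdkn1a, the cell cycle inhibitor p21, which p53 also induces, stood at 314, 182, 256 and 395 CPM in Low and 976, 1193, 1069 and 1749 CPM in High, with a log2 change of 2.12 ± 0.26 (SE, edgeR adjusted p 0.000115). Cdkn2b, the kinase inhibitor p15, stood at 8.12, 4.18, 5.62 and 4.95 CPM in Low and 19.2, 20.4, 21.3 and 26.8 CPM in High, with a log2 change of 1.94 ± 0.23 (SE, edgeR adjusted p 9.88e-05). Smurf1, a ubiquitin ligase that marks Smad1, Smad5 and their receptors for degradation, stood at 61.1, 52.1, 54.5 and 67.2 CPM in Low and 103, 134, 104 and 163 CPM in High, with a log2 change of 1.10 ± 0.18 (SE, edgeR adjusted p 0.00069). Both kinase inhibitor genes on the list of targets rose, while Snai2 and Ccn2 on that list fell, as did Tgfbi among the members. The genes of this list were named for the size of their change in each direction, so the contrast follows from that rule. The targets Junb, Msx1, Col4a1 and Fn1 did not pass.

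In the High fraction 5 members, Tgfb3, Inhba, Inhbb, Grem1 and Bambi, had a wide spread between animals. The High library of Male2 held 6 counts of Tgfb3, 3 of Inhba, 2 of Inhbb and 2 of Bambi, where the lowest of the other High libraries held 29, 34, 29 and 32 counts. None of the other 31 tested members ranged over more than 3.67-fold in High. Grem1 had no count in the High library of Male2, which allows a level of up to 0.154 CPM, and the median of the other High libraries was at least 19.0-fold higher than that. All 5 followed the order Female1, Male1, Female2, Male2 from high to low, which was also the order of the summed fibroblast markers, at 515, 367, 172.7 and 57.0 CPM. The summed endothelial markers (36.7, 24.4, 13.5 and 6.28 CPM), leukocyte markers (46.5, 32.8, 17.4 and 5.61 CPM) and muscle markers (33.2, 22.2, 11.3 and 4.58 CPM) had the same order, so it is not particular to fibroblasts. Tgfb2 and Fst followed it too, making 7 of 36 members, beside 14.6% of all tested genes. The median of the other High libraries was at least 4 times the level of Male2 for the 5 members, beside 9.16% of all genes. These shares are not far from the background. None of the 10 fibroblast markers was at 0 in any library, and the part of these 4 marker lists in the levels of the 5 members was not tested.

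**Figure D4:**
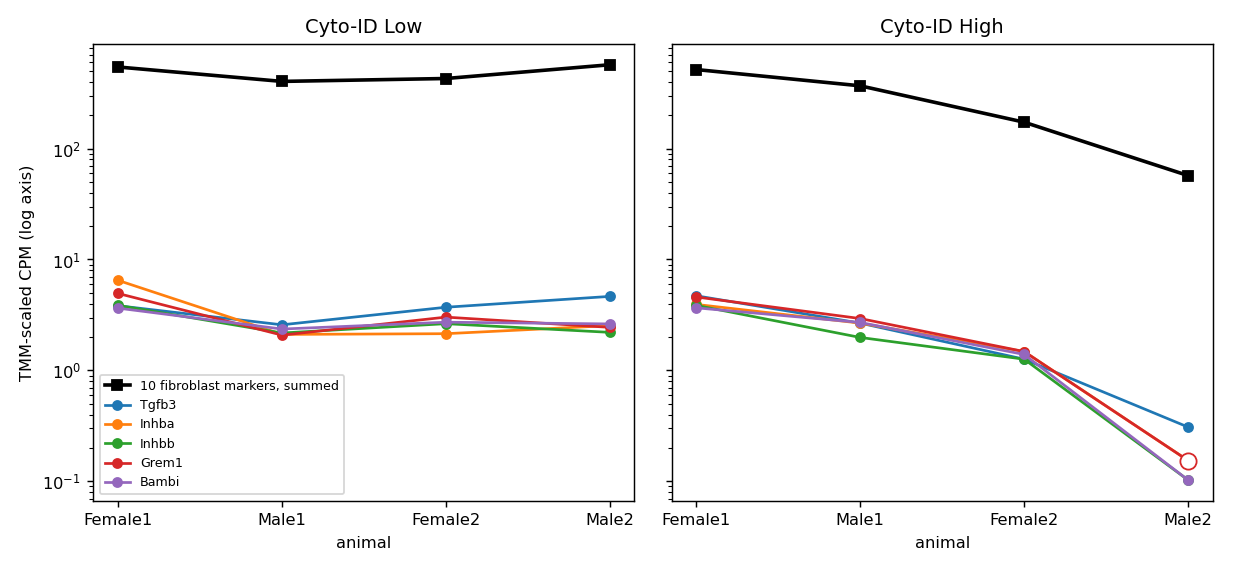
TMM-scaled CPM on a log axis for Tgfb3, Inhba, Inhbb, Grem1 and Bambi and for 10 summed fibroblast markers, by animal in each fraction, with the open circle marking 0 counts drawn at the limit of 0.154 CPM. In High all lines go down from Female1 to Male2, and in Low each member stays within 3.07-fold.

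No member passed a test of whether its difference between the fractions depended on sex. With a sex by fraction term, edgeR's quasi-likelihood test called 0 of 17344 genes, or 0%, and 0 of the 36 members. At an unadjusted p under 0.05 there were 0 members, and with the animal as a replicate block there was 1. That member was Fst, whose mean difference was −1.60 log2 CPM in the females and −2.62 in the males. There were 2 animals of each sex, and a dependence on sex was not detectable among them.

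The scaling of the libraries shifts all members together. Under total-count scaling, the median of all tested genes went from −0.09 to −0.64 and that of the members from −0.67 to −1.16. Then 24 members were lower and 1, Id1, was higher, and over all genes 49.1% were lower and 12.6% higher. The change of scaling moves every gene by about the same amount, so the gap between the 2 medians stays nearly the same by construction. Bmp7, Bmpr1a, Acvr1, Acvr2a, Smad7 and Id4 were the 6 members called lower under total counts alone.

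**Figure D5:**
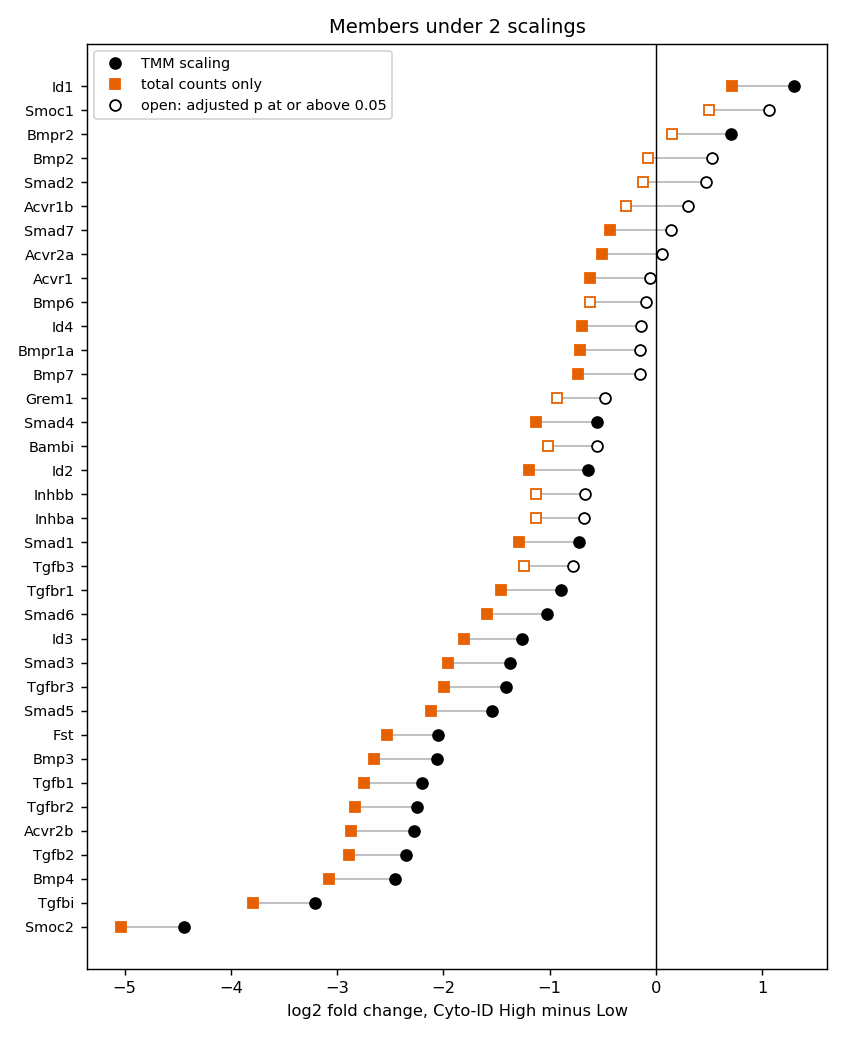
Log2 fold change of each tested member under TMM scaling (circles) and under scaling by total counts (squares), with open symbols for an adjusted p at or above 0.05. Each square lies to the left of its circle, and Id1 is the one member with a filled symbol above 0 under both.

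The exons of 11 members overlap those of another gene in GENCODE release M21, 9 of them a gene on the other strand only. These are Acvr2a, Bmp4, Bmp5, Bmp6, Bmpr1a, Fst, Id4, Tgfb2 and Tgfb3, and the other two, Smad5 and Tgfbr3, overlap a gene on the same strand. Whether the counting used the strand is not given in the sources used here, so reads of these genes may be shared.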

How the data were processed

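The authors deposited raw counts per gene symbol for 8 libraries. STAR 2.7.3, DESeq2 and GRCm38 are named in the submitters' processing notes, and the counting tool, annotation and strandedness are not given in the sources used here. Totals were 26285150 to 29301054 counts per library, and no symbol was blank. Members, lists and tests were chosen with earlier results of these data known. In R 4.3.3, genes passing filterByExpr (17344) were scaled by TMM over kept genes and tested with edgeR 4.0.16 (glmQLFit, glmQLFTest, sex as covariate, two-sided, Benjamini-Hochberg threshold 0.05), with the biological coefficient of variation at 0.257. Standard errors follow from the fold change and F. Log2 CPM used a prior count of 2. Exon lengths, over the union of a gene's annotated exons, and positions came from GENCODE M21 (GRCm38). There, 53388 of 55276 symbols and all 41 members matched. The pairing of libraries by animal comes from the names in the labels. Deviations of same-named libraries correlated across genes by 0.43, 0.32, −0.02 and 0.28 (Female1, Female2, Male1, Male2). For Male1 the pairing thus rests on the names alone, and its High library correlated at 0.35 with the Low library of Female1. Full values are given for members past the threshold with at least 2-fold change, others being added to show families. Alternatives used DESeq2 1.42.0 and limma 3.58.1 besides edgeR. On simulated counts with 200 genes changed by 1.5 log2, the main fit recovered 61.5% of them and called 8 others. A member that did not pass may therefore still differ. Here 48.7% of tested genes were called, and a shift that broad was not simulated. P-values of the main fit measure the spread between libraries within a fraction and sex, without the pairing by animal. Only the fits with the animal as a replicate block use that pairing.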

Additional observations from a re-analysis of the deposited data

Results flagged for a closer look

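In 86 groups of 4 libraries, the highest or lowest library was compared with the rest by Dixon's test on a log scale, and 7 groups had a library past its 95% critical value. Chance alone singles out about 1 in 20 groups. Inhba stood high in the Low library of Female1, at 6.49 CPM, where the others had 2.11 to 2.54. Fst stood low in the Low library of Female2, at 125 CPM, where the others had 300.2 to 359.1, and so did Smad1 in that library, at 38.6 CPM against 64.4 to 70.4. Smad3 was at 65.6 CPM in the Low library of Male2, where the others had 70.9 to 72.0. Id1 was at 109 CPM in the High library of Male2, where the others had 72.1 to 77.2. The summed gastric markers were at 18.4 CPM in the Low and 111 CPM in the High library of Female2, against at most 0.494 and 1.34 CPM in the other libraries of the fraction.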

How the results depend on the processing

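Of the 36 tested members, 21 had the same call and sign under all settings tried, and the 18 lower members stayed called lower under each setting except the one without both Male2 libraries, where Smad4 and Id2 did not pass. Leaving out both libraries of Male2 or of Female2 was chosen after seeing the data. The number of higher members moved from 2 to 1 under total counts and to 4 with the animal as a replicate block, and ran from 2 to 4 when each library was left out. The block added the calls of Bmp2 and Smad2 and changed no other call of a member. With total counts the log2 fold changes of Bmp2 (−0.075), Acvr1b (−0.28), Acvr2a (−0.51), Smad2 (−0.12) and Smad7 (−0.43) changed sign, where the construction lowers all genes. Other sign changes were of members that did not pass: Acvr1 with RLE size factors (0.017) and DESeq2 (0.017), Bmp6 with limma-voom (0.0064) and without both Male2 libraries (0.40), Acvr2a without both Female2 libraries (−0.0079), and Id4 without both Male2 libraries (0.083). Leaving out single libraries gave −0.47 to 0.23 for Bmp6, −0.29 to 0.0005 for Bmp7, −0.13 to 0.0079 for Acvr1, −0.060 to 0.16 for Acvr2a and −0.24 to 0.013 for Id4. For these the cause was not tested. Tgfb3 passed with no filter on low counts (−0.82, edgeR adjusted p 0.037). With at least 10 counts in every library, 29 members could be tested. Members under about 1 CPM rest on few counts.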

Other observations

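Decorin, which binds TGF-beta in the extracellular matrix, and Fbln1 stood apart from the other genes on the list of fibroblast markers, and both were singled out after their values were seen. Dcn was at 83.8, 96.2, 112 and 164 CPM in Low and 23.4, 9.45, 17.7 and 10.5 CPM in High (Female1, Female2, Male1, Male2), with a log2 change of −2.87 ± 0.33 (SE, edgeR adjusted p 9.15e-05). Fbln1, an elastic fibre protein, was at 62.9, 53.0, 73.4 and 62.1 CPM in Low and 16.5, 13.9, 16.9 and 18.8 CPM in High, with a log2 change of −1.93 ± 0.13 (SE, edgeR adjusted p 1.33e-05). The other 8 markers of the list did not pass, with collagen genes such as Col1a1 at −0.30 (SE 0.57, edgeR adjusted p 0.714) and Col3a1 at −0.39 (SE 0.61, edgeR adjusted p 0.645). The High library of Male2, the lowest for Col1a1 with 159 counts against 775 to 2774 in the other High libraries, had 204 counts of Dcn against 217 to 606 and 366 of Fbln1 against 319 to 442.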
